A study of Mus musculus with 27 samples.

Results

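Outflow tract myocardium of the embryonic mouse heart was examined in a droplet single-cell table of hearts at embryonic day E11.5. Outflow cells were chosen by summed UMIs (unique molecular identifiers, each standing for 1 captured transcript). A barcode was kept with under 10% of its UMIs in haemoglobin genes and at least 1% in the muscle genes Tnnt2, Actc1, Myl7, Myl4 and Tnnc1. It also needed at least 3 UMIs of Isl1, Rspo3, Sema3c and Bmp4 together, under 2 of the sinus venosus genes Shox2, Vsnl1 and Nr2f1, and under 3 of the endothelial genes Pecam1, Cdh5 and Egfl7. In all, 436 of 6032 barcodes met the rule, 173 of 2563 in the library labelled +/+ and 263 of 3469 in the library labelled F/F.

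The series concerns Hand2os1, also called Hand2as or Uph, a long non-coding RNA gene next to Hand2. Mice were C57BL/6, and F stands for the full-length knockout allele. For single cells, +/+ and F/F hearts came from intercrosses of heterozygotes. Each was dissociated with trypsin and live cells were sorted by dye exclusion, after which the cells of 6 hearts per genotype were pooled into 1 droplet 3′ library that aimed at 5000 cells. Whole hearts at E11.5 were also sequenced in bulk, as 3 libraries of F/+ and 3 of F/F, so that the bulk controls carry a deleted copy while the single-cell control does not. Bulk ventricles at E16.5, also 3 libraries of F/+ and 3 of F/F, are described at the end.

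The outflow tract is the vessel-like segment of muscle through which the ventricles empty. It is added to the heart late, from progenitors of the second heart field that express the LIM-homeodomain factor Isl1, and its wall later gives rise to the base of the great arteries. Bmp4 encodes a secreted bone morphogenetic protein, Sema3c a secreted semaphorin that guides neural crest cells into the outflow cushions, and Rspo3 a secreted amplifier of Wnt signalling. Itm2a encodes a small membrane protein and Clu the secreted chaperone clusterin.

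The libraries held 38302758 and 51432290 UMIs (+/+ and F/F), and 18 barcode sequences occurred in both, of which 2 were outflow cells in either library and 0 in both. Outflow cells had median depths of 14677 and 14708 UMIs and 3474 and 3536 detected genes. Hand2os1, listed as Gm28063, had 0 UMIs in the outflow cells of either library, so it does not check the genotype labels there. The sex makeup of the pools differed: genes of the Y chromosome had 850 UMIs in the library labelled +/+, 69 of them in outflow cells, and 0 in the library labelled F/F. Xist, the RNA of the inactive X chromosome, was at 415 and 678 CPM (UMIs of a gene in the class, scaled to a common total of UMIs) in outflow cells. With a single pooled library per genotype, no difference between the libraries has a replicate check, and every interval given for single cells covers counting error only.

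Outflow cells made up 29.3% of cardiomyocytes in the library labelled +/+ (173 of 591, 95% Clopper-Pearson interval 25.6 to 33.1) and 27.6% in the library labelled F/F (263 of 952, 24.8 to 30.6). As shares of all barcodes the values were 6.75% (5.81 to 7.79) and 7.58% (6.72 to 8.51). The intervals of the libraries overlapped on both denominators. These shares come from sorted suspensions and move with the number of UMIs asked for. After every barcode was thinned to 5000 UMIs, 22.1% and 21.0% of cardiomyocytes met the rule.

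The rule cuts a continuous range. Among cardiomyocytes with few sinus UMIs, 286 and 431 had 0 UMIs of the summed outflow genes. Just outside the threshold, at 2 UMIs, were 28 and 61 cells, and just inside, at 3 UMIs, were 12 and 24. The median outflow cell had 13 UMIs in the library labelled +/+ and 12 in the library labelled F/F, and the highest had 52 and 56. All 4 genes were detected in 50 of 173 and 63 of 263 cells, whereas 32 and 37 cells passed on a single gene. Bmp4 was detected in 145 and 211 outflow cells, Rspo3 in 137 and 219, Sema3c in 120 and 183, and Isl1 in 70 and 99.

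**Figure D1:**
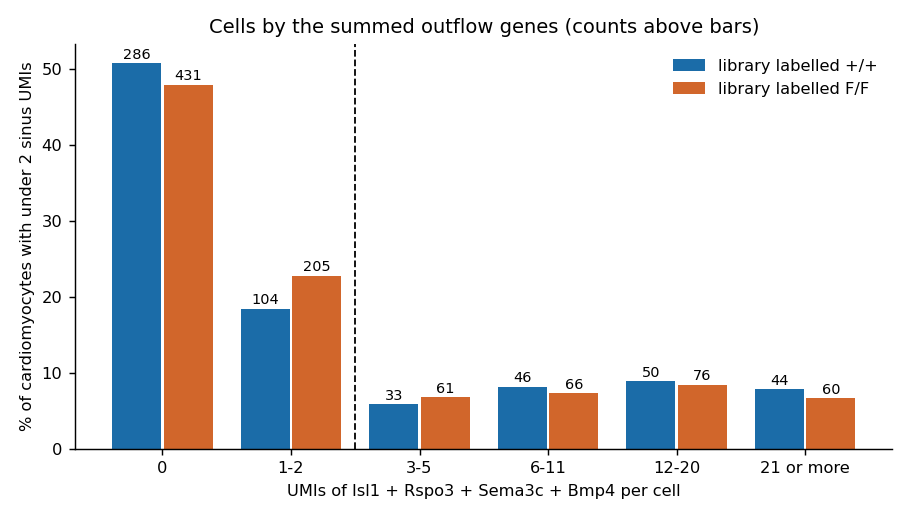
Share of cardiomyocytes with under 2 sinus venosus UMIs (vertical axis, percent) by their summed UMIs of Isl1, Rspo3, Sema3c and Bmp4 (horizontal axis), for the library labelled +/+ and the library labelled F/F, with cell counts above the bars and the threshold as a dashed line. Cells at 0 were most numerous (286 and 431), and cells inside the rule spread over 4 bins of 33 to 76 cells.

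For comparison, the remaining barcodes were sorted by the same kind of rule. Chamber-type cardiomyocytes, with under 3 UMIs of the summed outflow genes and few sinus UMIs, numbered 390 and 636. Sinus-type cardiomyocytes, with at least 2 sinus UMIs, numbered 28 and 53. Cells with little muscle RNA and at least 3 UMIs of Rgs5, a pericyte and smooth muscle precursor gene, numbered 63 and 83 and are called Rgs5 wall cells. Haemoglobin-rich erythroid barcodes numbered 993 and 1292, and 916 and 1142 other cells remained.

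Itm2a and Clu were not part of the rule. They were listed as markers with earlier results of these data known, so they do not check the name independently. Itm2a stood at 1415 CPM in outflow cells of the library labelled +/+ and 1236 CPM in those of the library labelled F/F. In chamber-type cells it was at 108 and 93.8 CPM, and the next highest class was the Rgs5 wall cells at 527 and 382 CPM. Clu was at 306 and 357 CPM in outflow cells and at 44.1 and 54.4 CPM in chamber-type cells, the next highest class in each library. Each of these markers was therefore highest in outflow cells among the 6 classes in both libraries.

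Of the genes that chose the cells, Bmp4 was at 434 and 354 CPM in outflow cells against 4.81 and 6.22 CPM in chamber-type cells. Bmp4 was not restricted to them, with 306 and 298 CPM in Rgs5 wall cells and 287 and 142 CPM in sinus-type cells. Rspo3 was at 344 and 382 CPM, with no other class above 89.7 CPM. Sema3c was at 163 and 171 CPM, with no other class above 37.9 CPM. Isl1 reached 65.6 and 50.2 CPM in outflow cells and was higher in Rgs5 wall cells, at 95.1 and 74.0 CPM, and chamber-type cells held only 3 and 1 UMIs of it. At equal depth of 5000 UMIs, Bmp4 was detected in 68.2% and 65.2% of outflow cells (83.8% and 80.2% before thinning). Erythroid barcodes, which should lack Bmp4, had it in 1.53% and 1.55% after thinning. Isl1 was detected in 21.8% and 15.02% of thinned outflow cells and in 0.329% and 0.245% of thinned erythroid barcodes.

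**Figure D2:**
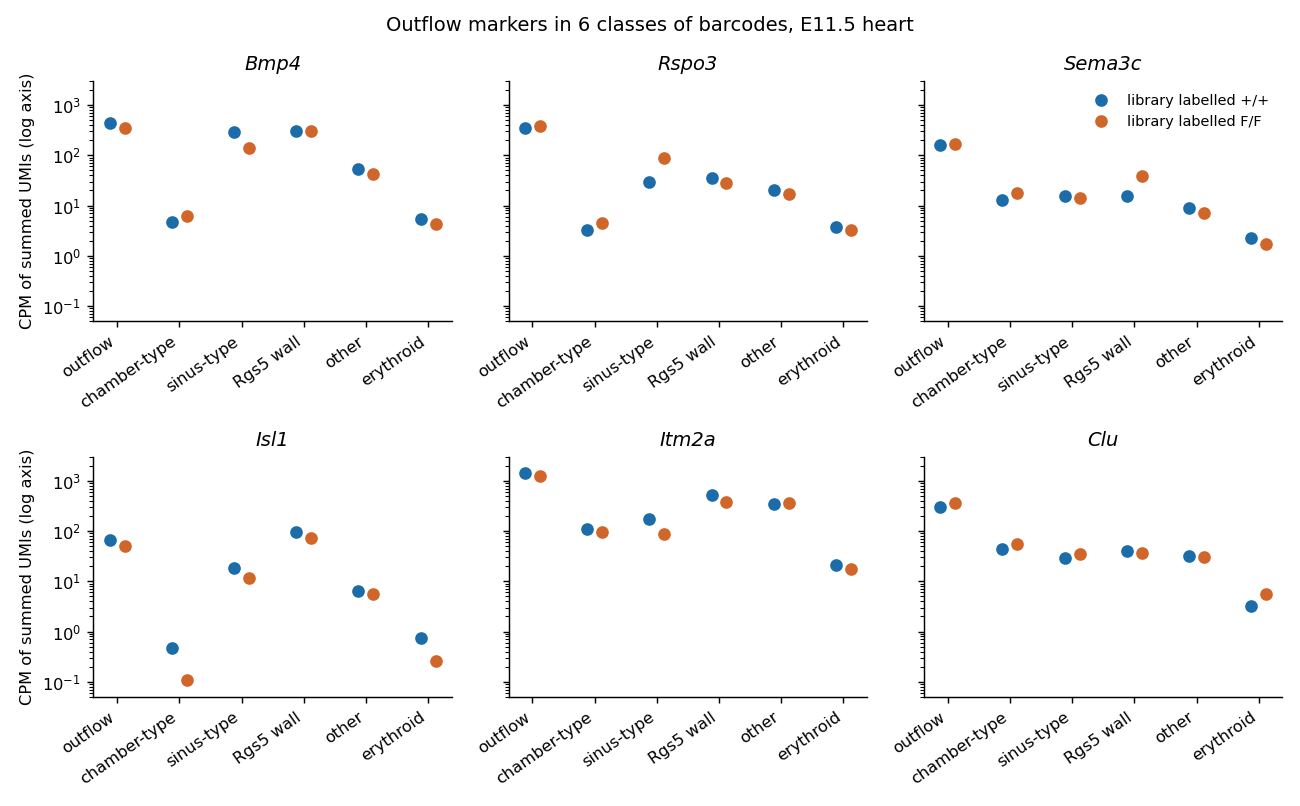
CPM of summed UMIs (log axis) of Bmp4, Rspo3, Sema3c, Isl1, Itm2a and Clu in 6 classes of barcodes, 1 point per library. Outflow cells were highest for Rspo3, Sema3c, Itm2a and Clu, while Isl1 was higher in Rgs5 wall cells, at 95.1 and 74.0 CPM against 65.6 and 50.2 CPM.

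Levels in outflow cells were then set against chamber-type cardiomyocytes in each library. Because the rule used RNA of the same cells, this is a description without a test. Genes with a ratio past 1.5-fold in the same direction in both libraries are called higher or lower. Of 4820 genes with a mean of at least 20 CPM over both classes in each library, 361 were higher (7.49%) and 180 were lower (3.73%).

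Mybpc1, which encodes the slow-type myosin-binding protein C, was at 53.0 and 47.7 CPM in outflow cells. Chamber-type cells held 7 and 2 UMIs of it, or 1.12 and 0.214 CPM. The log2 ratios were 5.56 (interval 4.48 to 6.90) and 7.80 (5.92 to 10.85), and no other class exceeded 5.27 CPM. Eln, the gene of elastin, was at 89.2 and 67.7 CPM against 3.04 and 1.61 CPM, and Rgs5 wall cells carried more, at 325 and 145 CPM. Tnc, an extracellular glycoprotein, was at 145 and 143 CPM against 5.77 and 3.97 CPM, and the next class, the Rgs5 wall cells, was at 71.4 and 49.1 CPM. Dlk1, a membrane protein of the Notch ligand family, was at 252 and 296 CPM against 9.14 and 8.05 CPM. Crabp1, which binds retinoic acid, was at 107 and 85.9 CPM against 4.01 and 2.90 CPM.

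Other genes also led by the same ratio. Col1a2, a collagen chain, was at 125 and 94.6 CPM in outflow cells and at 387 and 400 CPM in Rgs5 wall cells. Nrp2, a semaphorin co-receptor, was at 48.0 and 36.9 CPM against 4.97 and 1.61 CPM in chamber-type cells. Inha, an inhibin subunit, was at 46.5 and 55.1 CPM against 3.37 and 5.26 CPM, and Sparcl1, a matrix protein, at 53.0 and 47.2 CPM against 3.05 and 2.79 CPM. Cox4i2, a cytochrome oxidase subunit, was at 129 and 115 CPM against 13.8 and 11.8 CPM. Uts2b, a urotensin-related peptide gene, rested on few cells: 1 cell held 51.6% of its 62 UMIs in the library labelled +/+ and 1 cell held 42.3% of its 52 UMIs in the library labelled F/F.

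Several genes of working chamber muscle stood at the other end. Of 15 measured chamber genes 9 were lower and 0 higher, beside 3.73% and 7.49% of all genes. The 15 lowest ratios also included other genes, among them Wdr93 and Gtsf1. Nppa, the atrial natriuretic peptide gene, was at 30.1 and 41.5 CPM in outflow cells and at 1190 and 1128 CPM in chamber-type cells. Of its 162 UMIs in F/F outflow cells, 63.6% came from 1 cell, and its thinned detection was 5.88% and 7.91% of outflow cells against 3.29% and 6.04% of erythroid barcodes. With the threshold at 2 UMIs the log2 ratio of Nppa in the library labelled +/+ was -0.54 in place of -5.30. Gja1, the connexin 43 gene, was at 10.3 and 7.69 CPM against 177 and 148 CPM, and Gja5, the connexin 40 gene, at 3.81 and 2.31 CPM against 39.1 and 36.9 CPM. Bmp10, a growth factor of trabecular muscle, had 6 and 3 UMIs in outflow cells, or 2.29 and 0.769 CPM, against 29.8 and 20.1 CPM. The transcriptional co-activator gene Cited1 was at 74.7 and 39.2 CPM against 677 and 509 CPM. Mest, an imprinted growth-associated gene, was at 201 and 141 CPM against 1539 and 1391 CPM.

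**Figure D3:**
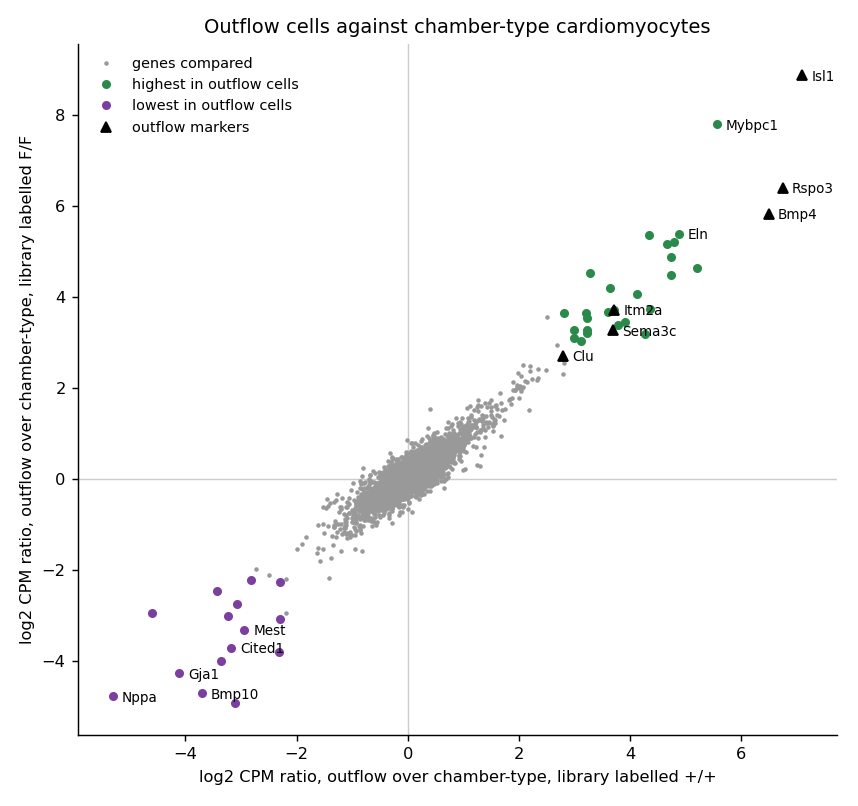
Log2 CPM ratio of outflow cells over chamber-type cardiomyocytes in the library labelled +/+ (horizontal axis) and the library labelled F/F (vertical axis), 1 point per gene, with the 25 highest and 15 lowest genes coloured and the 6 outflow markers as triangles. Isl1, Rspo3, Bmp4 and Mybpc1 lie furthest to the upper right and Nppa, Gja1 and Bmp10 to the lower left in both libraries. Isl1, Rspo3 and Bmp4 belong to the rule that separated the classes, so their place is bound by it.

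The bases upstream of Bmp4, Sema3c and Itm2a, markers of the class, and of Mybpc1, the first of the genes named for their ratio, are shown because these genes were high together. They are RefSeq sequence (build GRCm38.p6), 250 bases before the start, 5′ to 3′ on the gene's strand. The table of starts used here matched 4 of the 6 markers, and the window of the other one, Isl1, is not shown. Capitals mark matches to motifs of cardiac factor families searched on both strands: AGATAA for GATA factors, CATCTG as an E-box form, AGGTGT for T-box factors and TNAAGTG for NK2 factors. Among 32851 windows of this length, 9.99% held the GATA motif, 14.4% the E-box form, 11.8% the T-box motif and 10.1% the NK2 motif.
Bmp4, chr14:46390670-46390919, minus strand, held 0 matches.
Bmp4: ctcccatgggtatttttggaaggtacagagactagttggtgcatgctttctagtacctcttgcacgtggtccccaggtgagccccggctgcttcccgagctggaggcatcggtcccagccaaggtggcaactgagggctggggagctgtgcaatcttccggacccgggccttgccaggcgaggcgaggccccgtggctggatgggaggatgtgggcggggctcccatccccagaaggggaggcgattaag
Sema3c, chr5:17574566-17574815, plus strand, held 1 match, to the E-box form.
Sema3c: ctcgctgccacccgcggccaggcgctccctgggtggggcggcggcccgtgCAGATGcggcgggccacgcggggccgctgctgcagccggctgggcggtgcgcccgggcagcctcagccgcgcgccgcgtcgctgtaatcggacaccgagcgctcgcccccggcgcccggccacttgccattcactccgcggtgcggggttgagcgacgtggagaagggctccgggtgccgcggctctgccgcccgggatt
Itm2a, chrX:107403361-107403610, minus strand, held 1 match, to the GATA motif.
Itm2a: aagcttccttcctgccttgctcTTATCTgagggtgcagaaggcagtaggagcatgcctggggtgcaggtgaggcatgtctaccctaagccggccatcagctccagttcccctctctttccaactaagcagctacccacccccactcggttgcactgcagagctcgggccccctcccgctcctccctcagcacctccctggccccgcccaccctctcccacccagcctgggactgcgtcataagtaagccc
Mybpc1, chr10:88605153-88605402, minus strand, held 1 match, to the E-box form.
Mybpc1: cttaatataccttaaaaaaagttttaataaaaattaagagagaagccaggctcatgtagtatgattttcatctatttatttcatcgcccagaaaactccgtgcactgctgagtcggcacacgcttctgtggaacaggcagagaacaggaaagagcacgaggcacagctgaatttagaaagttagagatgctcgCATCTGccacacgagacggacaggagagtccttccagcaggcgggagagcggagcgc
A match is only a run of letters, and no motif was shared by all 4 windows.

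In the BMP and TGF-beta list, 10 of 16 measured members were higher in outflow cells and 0 were lower, against 7.49% of all genes higher. The median log2 ratios of the list were 1.36 and 1.35, against 0.02 and 0.05 over all genes. The list summed to 2547 and 2694 CPM in outflow cells and to 1002 and 1067 CPM in chamber-type cells. Sums were higher in Rgs5 wall cells, at 4191 and 4512 CPM, and in other non-erythroid cells, at 3232 and 3381 CPM. In sinus-type cells they were 2588 and 2169 CPM, so a high level of this list was not particular to outflow cells. Bmp4, a gene of the rule, is among the 10. The ligand Bmp2 was at 82.0 and 74.6 CPM against 6.57 and 4.08 CPM in chamber-type cells. Tgfb2, another ligand, was at 187 and 217 CPM against 47.1 and 43.2 CPM. Id1 and Id3, targets of BMP signalling that block bHLH factors, were at 137 and 183 CPM against 19.4 and 31.4 CPM, and at 214 and 278 CPM against 51.3 and 69.5 CPM. The inhibitory Smad genes Smad6 and Smad7 were at 84.7 and 75.9 CPM and at 68.3 and 57.2 CPM, against 19.4 to 22.4 CPM in chamber-type cells. The receptor genes Bmpr1a and Bmpr2 and the mediators Smad4 and Smad5 were not past 1.5-fold in both libraries. The antagonist Grem1 had 0 UMIs in outflow cells of either library.

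Few second heart field factors besides Isl1 were measurable. Of 20 listed, 4 reached the minimum level, and Crabp1 and Hes1 were higher, beside 7.49% of all genes. Hes1, a Notch target, was at 133 and 94.1 CPM against 35.6 and 24.0 CPM. Tbx1 was at 1.53 and 2.31 CPM, Fgf8 at 3.81 and 7.18 CPM and Fgf10 at 0.763 and 1.28 CPM in outflow cells, levels at which ratios are not given. Among 17 measured cardiac transcription factors 2 were higher (Gata5 and Tbx20) and 4 lower (Hopx, Tbx5, Hey2 and Irx4), beside 7.49% and 3.73% of all genes. Tbx20 was at 292 and 227 CPM against 136 and 118 CPM, and Irx4, a ventricular factor, at 15.3 and 20.5 CPM against 60.9 and 59.6 CPM. Nkx2-5, the general cardiac homeodomain factor, was at 310 and 343 CPM against 268 and 280 CPM, not past 1.5-fold.

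In the Wnt and R-spondin list 2 of 8 measured members were higher and 1 lower, beside 7.49% and 3.73% of all genes. The higher ones were Rspo3, which is a gene of the rule, and the receptor gene Fzd1, and the lower one was Ror2. Fzd1 was at 72.1 and 53.0 CPM against 18.4 and 12.6 CPM. In the semaphorin list 1 of 4 measured members was higher, Sema3c, which the rule itself chose as high, and 1 was lower. The lower one was Nrp1, another co-receptor gene, at 66.3 and 57.1 CPM against 126 and 110 CPM. Nrp2 was not in this count because its mean over both classes was below the minimum level in the library labelled F/F.

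Contractile genes were next. Of 28 measured sarcomere genes 4 were higher (Myl7, Acta1, Acta2 and Tnnt1) and 2 lower (Myl2 and Myl1), beside 7.49% and 3.73% of all genes, with median log2 ratios of 0.18 and 0.17. Myl7, the atrial regulatory light chain, is a gene of the rule and was at 19264 and 18971 CPM against 6670 and 8272 CPM. Myl2, the ventricular counterpart, was at 4477 and 4376 CPM against 10951 and 10533 CPM. Of 14 measured smooth muscle genes 6 were higher and 0 lower, beside the same 7.49% and 3.73%. Acta2, smooth muscle actin, was at 5470 and 5404 CPM against 2460 and 2410 CPM, and Tagln, transgelin, at 1587 and 1518 CPM against 696 and 672 CPM. Both were also above their level in Rgs5 wall cells, at 975.2 and 1232 CPM for Acta2 and 1278 and 1297 CPM for Tagln. Myh11, the myosin of mature smooth muscle, was at 1.14 and 0 CPM in outflow cells.

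Proliferation genes leaned the other way. Of 25 measured members 11 were lower in outflow cells, against 3.73% of all genes, and only Cdkn1a, which encodes the cell cycle inhibitor p21, was higher. Cdkn1a was at 47.7 and 50.2 CPM against 16.4 and 19.95 CPM. Mki67 was at 31.6 and 42.0 CPM against 57.8 and 66.3 CPM, Ccnd2 at 392 and 308 CPM against 703 and 550 CPM, and Ube2c at 197 and 216 CPM against 346 and 440 CPM. The median log2 ratios of the list were -0.84 and -0.50. The list summed to 3641 and 3555 CPM in outflow cells and to 4192 and 4074 CPM in chamber-type cells. It summed to 3533 and 3291 CPM in sinus-type cells, so the lower level was not particular to outflow cells. Of 76 ribosomal protein genes, a list added after seeing the data, 0 were higher and 4 lower, beside 7.49% and 3.73% of all genes, with median log2 ratios of -0.41 and -0.35.

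Of 16 measured matrix genes 6 were higher (Eln, Tnc, Col1a2, Col5a1, Mfap2 and Sparc) and 2 lower (Col4a1 and Fbln1), beside 7.49% and 3.73% of all genes. Among 29 measured genes of energy metabolism 4 were higher and 0 lower, counts near those shares. Ldha, lactate dehydrogenase A, was at 3249 and 3193 CPM against 1941 and 1931 CPM, and Cox6a2, the muscle form of a cytochrome oxidase subunit, at 1258 and 1554 CPM against 651 and 670 CPM. Gjc1, the connexin 45 gene, was at 95.7 and 89.96 CPM against 39.1 and 42.8 CPM. Of the other connexin genes Gja1 was lower, and Gja5 was under the minimum level for a call.

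Among markers of neighbouring cell types, those of ventricular and atrial muscle and of outflow wall smooth muscle precursors were not low. The others given here were lower, but not all at background. The 9 cushion mesenchyme markers summed to 200 and 183 CPM in outflow cells, to 40.5 and 47.4 CPM in chamber-type cells and to 1860 and 1785 CPM in Rgs5 wall cells, with a median of 1 UMI per outflow cell in each library. The 12 endothelial markers, some of which the rule limits, summed to 48.4 and 63.1 CPM against 677 and 653 CPM in the other non-erythroid cells. The neural crest markers, 5 of 7 present in the table, summed to 1.14 and 3.59 CPM. Epithelial markers summed to 110 and 127 CPM against 45.5 and 44.0 CPM in chamber-type cells, nearly all from Krt8 and Krt18, while Cdh1, Foxa2 and Nkx2-1 had 0 UMIs. The 10 immune markers summed to 23.3 and 21.8 CPM against 29.0 and 24.5 CPM in chamber-type cells, while Ptprc and Aif1 had 0 UMIs. The 8 epicardial markers summed to 93.4 and 121.5 CPM against 58.0 and 66.5 CPM in chamber-type cells, and Krt19 was called higher. The 9 ventricular and atrial markers had medians of 106 and 97 UMIs per outflow cell and 238 and 204.5 per chamber-type cell. The 7 outflow wall smooth muscle precursor markers summed to 7513 and 7351 CPM in outflow cells. They summed to 3442 and 3331 CPM in chamber-type cells and to 3134 and 3382 CPM in Rgs5 wall cells. Whether any of these levels bears on the ratios above was not tested.

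Levels changed along the sum of the rule's own genes. Cells at 3 to 5 UMIs, 33 and 61 in number, had 10222 and 7663 CPM of Myl2. In the library labelled +/+ that was close to the 11223 CPM of cells at 1 or 2 UMIs. In the library labelled F/F it was below the 10996 CPM of such cells. Both values were far above the 2079 and 2769 CPM of cells at 21 or more. Mest fell from 1247 and 1121 CPM at 1 or 2 UMIs to 804 and 439 CPM at 3 to 5 UMIs. At 21 or more it was at 40.1 and 42.1 CPM. Itm2a went the other way, from 212 and 390 CPM at 3 to 5 UMIs to 2219 and 1848 CPM at 21 or more. Mybpc1 had 2 and 10 UMIs, or 3.86 and 11.4 CPM, in the lowest bin and 93.6 and 71.7 CPM in the highest. Cells just inside the threshold thus had levels of Itm2a, Myl2 and Mest between those of the cells at 1 or 2 UMIs and those at 21 or more.

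**Figure D4:**
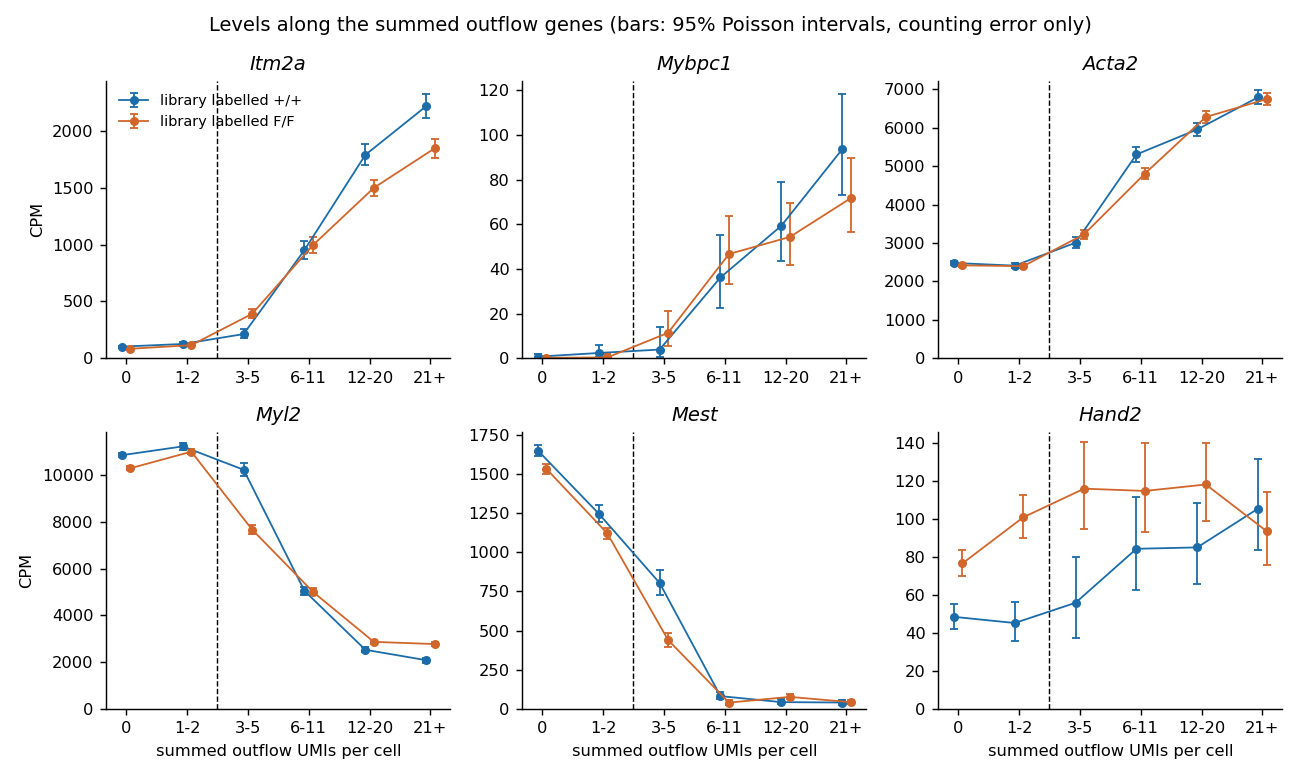
CPM of Itm2a, Mybpc1, Acta2, Myl2, Mest and Hand2 (vertical axes from 0) in cardiomyocytes binned by their summed UMIs of Isl1, Rspo3, Sema3c and Bmp4, with 95% Poisson intervals of counting error and the threshold dashed. Itm2a, Mybpc1 and Acta2 are higher and Myl2 and Mest lower in the last bin than in the first in either library, with the bin at 3 to 5 UMIs between the ends. Not every step kept that order. Mest in the library labelled F/F rose from 39.5 CPM at 6 to 11 UMIs to 76.2 CPM at 12 to 20. Myl2 rose from the first to the second bin, from 10847 to 11223 CPM (+/+) and from 10289 to 10996 CPM (F/F).

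Among genes outside the rule, those whose log values tracked this sum most closely over outflow cells were Csrp2 (r = 0.588 and 0.607), Itm2a (0.667 and 0.538), Meg3 (0.460 and 0.418) and Itm2b (0.405 and 0.406). The values are over 173 and 263 cells, which share their library and whose depth enters both measures. These are 4 of the 8 closest. Csrp2 encodes a LIM protein of smooth muscle and Meg3 an imprinted non-coding RNA. Among the 8 most negative were Stmn1 (-0.466 and -0.491), Myoz2 (-0.553 and -0.459), Hmgb2 (-0.429 and -0.500), Ube2c (-0.398 and -0.480) and Myl2 (-0.511 and -0.393). Stmn1 encodes a microtubule regulator, Myoz2 a Z-disc protein and Ube2c an enzyme of mitotic exit.

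Whether outflow cells differed between the genotypes was then examined. Among 5278 genes with at least 50 UMIs in the outflow cells of each library, 142 had a CPM ratio past 1.5-fold (2.69%), of which 26 were higher in the library labelled F/F (0.493%) and 116 lower (2.2%). None of the 6 outflow markers was among them. Of these, Bmp4, Rspo3, Sema3c and Isl1 chose the cells in both libraries, so their levels inside the class are bound by the rule and are given as a description. Bmp4 was at 434 CPM in the library labelled +/+ and 354 CPM in that labelled F/F, with the log2 ratio at -0.29 (-0.41 to -0.18). For Isl1 the log2 ratio was -0.38 (-0.69 to -0.08), for Rspo3 0.15 (0.03 to 0.27) and for Sema3c 0.07 (-0.11 to 0.25). Of the markers outside the rule, Itm2a had a log2 ratio of -0.20 (-0.26 to -0.13) and Clu of 0.22 (0.09 to 0.35).

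Hand2, the neighbour of the deleted gene and a bHLH factor of the second heart field and right ventricle, was at 85.0 CPM (223 UMIs) in outflow cells labelled +/+ and 110 CPM (431 UMIs) in those labelled F/F. The log2 ratio was 0.38 (0.14 to 0.62), not past 1.5-fold. In chamber-type cells of the same libraries Hand2 was at 47.6 and 85.1 CPM, for a log2 ratio of 0.84 (0.64 to 1.04), and in Rgs5 wall cells at 215 and 169 CPM, for a log2 ratio of -0.35 (-0.65 to -0.04). At a threshold of 6 UMIs, an alternative added after seeing the data, the outflow ratio was 0.24 (-0.02 to 0.50). Along the bins Hand2 was at 55.9 and 116 CPM at 3 to 5 UMIs, at 84.4 and 115 CPM at 6 to 11 and at 85.1 and 118 CPM at 12 to 20. At 21 or more it was at 106 CPM (83.6 to 132) and 93.7 CPM (76.0 to 114). The library labelled F/F had the higher value in each bin below 21 UMIs, but the intervals of both libraries overlapped at 6 to 11, at 12 to 20 and at 21 or more. After thinning, 32.9% and 44.7% of outflow cells had a Hand2 UMI (66.5% and 72.2% unthinned), against 1.10% and 3.51% of erythroid barcodes. The difference between classes has no test with 1 library per genotype.

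Ptn, which encodes the growth factor pleiotrophin, had the highest F/F ratio, with 25.9 and 60.7 CPM and a log2 ratio of 1.23 (0.83 to 1.64). It rested on cells near the threshold: in the library labelled F/F the cells at 3 to 5 UMIs held 149 CPM and those at 21 or more 26.8 CPM. With a threshold of 5 UMIs the log2 ratio was 0.43, with the highest doublet scores removed 0.50, and after thinning 0.19. In Rgs5 wall cells Ptn was at 549 and 524 CPM. Its part in the difference was not tested. S100a10, an annexin partner, was at 88.1 and 143 CPM, and its log2 ratio of 0.70 was 0.37 with the highest doublet scores removed and 0.31 at a threshold of 6 UMIs. Fabp5, a fatty acid binding protein, was at 116 and 184 CPM (log2 ratio 0.66, 0.47 to 0.86) and in chamber-type cells at 134 and 156 CPM. Ung, a DNA repair glycosylase, was at 19.8 and 32.6 CPM (0.72, 0.24 to 1.21). Nme4, a mitochondrial nucleoside diphosphate kinase, was at 34.3 and 60.5 CPM (0.82, 0.46 to 1.18), with 0.44 at a threshold of 2 UMIs and 0.28 after thinning. The remaining high genes were Gm26917, Gm9844, Nxt1, Krt10 and Gm9493. For Gm26917 the log2 ratio was 1.05 in outflow and 0.94 in chamber-type cells, and for Gm9844 it was 0.75 and 0.74.

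Several of the lowest ratios were about as low in chamber-type cells of the same libraries. Snhg9, a small nucleolar RNA host gene, was at 86.6 and 30.0 CPM in outflow cells (log2 ratio -1.53, -1.86 to -1.20) and at 94.1 and 26.9 CPM in chamber-type cells (-1.805). Nmt1, an N-myristoyltransferase, was at 151 and 59.2 CPM (-1.35) and at 187 and 67.4 CPM (-1.47). Amd1, which makes the aminopropyl donor for polyamines, was at 71.3 and 27.2 CPM (-1.39) and at 79.0 and 35.7 CPM (-1.15). Naa15, an acetyltransferase subunit, and Dync1i2, a dynein chain, had log2 ratios of -1.02 and -0.96 in outflow cells and -1.12 and -1.06 in chamber-type cells.

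Others were lower by more in outflow than in chamber-type cells, although that difference has no test. Hk2, hexokinase 2, was at 252 and 109 CPM in outflow cells (log2 ratio -1.21, -1.38 to -1.03) and at 133 and 77.3 CPM in chamber-type cells (-0.79, -0.93 to -0.64). Nppb, the B-type natriuretic peptide gene, was at 78.9 and 35.6 CPM (-1.15, -1.47 to -0.83) and at 360 and 274 CPM (-0.39, -0.47 to -0.31). Its log2 ratio was -1.76 with a threshold of 5 UMIs and -1.87 with 2 UMIs. Nppb was detected in only 42 and 37 outflow cells. In each library 1 cell held a large part, 28.5% of 207 UMIs (+/+) and 30.9% of 139 UMIs (F/F). Cells at 3 to 5 UMIs of the rule's genes held 134 and 98 of these UMIs, or 258 and 111.5 CPM. The library labelled F/F was also lower at 6 to 11 UMIs, at 53.4 and 13.2 CPM, and at 12 to 20. At 21 or more, Nppb was at 14.7 and 14.3 CPM. Cited1 was at 74.7 and 39.2 CPM (-0.93) and at 677 and 509 CPM (-0.41), and after thinning its ratio in outflow cells was -0.36 (-0.96 to 0.24). Cox8b, a muscle cytochrome oxidase subunit, was at 46.1 and 22.3 CPM (-1.05) and at 22.1 and 12.9 CPM (-0.78). Phlda2, an imprinted growth gene, had 73 and 50 UMIs in outflow cells, or 27.8 and 12.8 CPM (-1.12), in only 21 and 23 cells, and in Rgs5 wall cells it was at 163 and 45.4 CPM (-1.84).

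**Figure D5:**
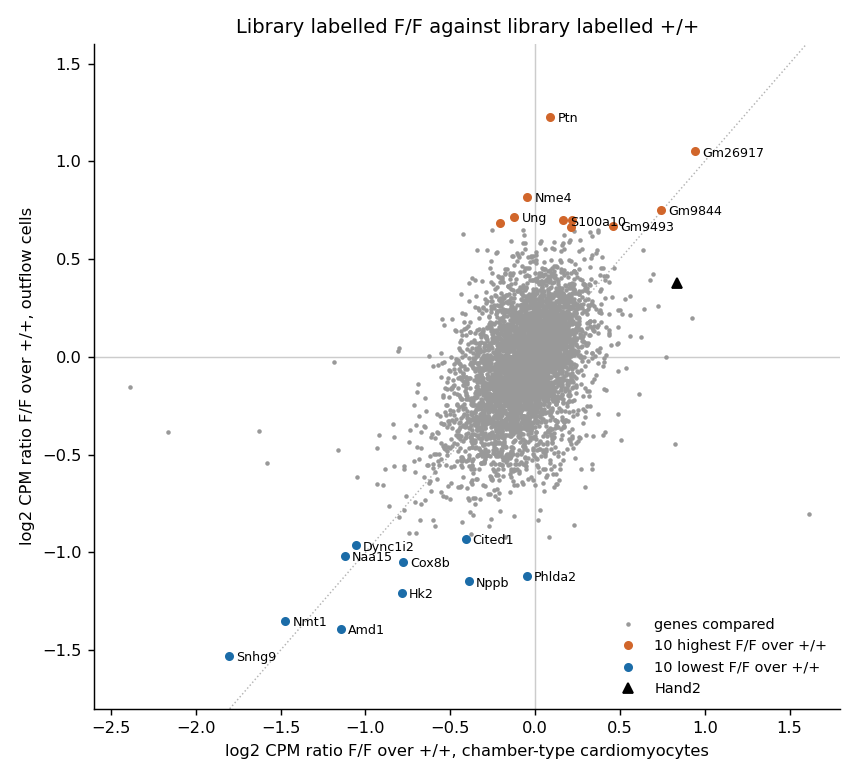
Log2 CPM ratio of the library labelled F/F over the library labelled +/+ in chamber-type cardiomyocytes (horizontal axis) and in outflow cells (vertical axis), 1 point per gene, with the dotted line of equal ratios. Snhg9, Nmt1, Naa15 and Dync1i2 lie near the line, Ptn, Nme4 and Phlda2 lie away from it near 0 on the horizontal axis, and Hand2 (triangle) is at 0.84 and 0.38.

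By list, few members were past 1.5-fold between the libraries, beside 2.69% of all genes. The count was 0 of 17 for BMP and TGF-beta genes, 0 of 28 for sarcomere genes and 0 of 15 for smooth muscle genes. Of 11 chamber genes 2 were lower in the library labelled F/F (Cited1 and Nppb), of 30 energy metabolism genes 2 (Hk2 and Cox8b) and of 17 matrix genes 1 (Lamb1). In the cardiac transcription factor list 2 of 15 were lower in the library labelled F/F. These were Hopx, a homeodomain-only factor, at 33.6 and 17.9 CPM, and Tead1, a partner of Yap, at 140 and 84.6 CPM. In chamber-type cells their log2 ratios were -0.70 and -0.37, beside -0.90 and -0.72 in outflow cells. Of 22 proliferation genes 1 was higher, Rrm2, the ribonucleotide reductase subunit, at 54.9 and 83.0 CPM, and the list's median log2 ratio was 0.26 against -0.03 over all genes. Id1, Id2 and Id3 had log2 ratios of 0.42, 0.45 and 0.38 in outflow cells and 0.70, 0.39 and 0.44 in chamber-type cells, none past 1.5-fold in outflow cells. Because the pools differed in sex makeup, genotype and sex cannot be told apart in any of these values.

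The bulk E11.5 hearts gave a replicated view of the markers at the stage of the single cells. In whole hearts fewer cells of a type and less RNA per cell cannot be told apart. Values are FPKM (fragments scaled by transcript length and library total), and differences are on the log2(FPKM + 1) scale. Hand2os1, listed as LOC102636514, was at 0 in all 6 libraries and does not check these labels. Bmp4 was at 28.0, 51.3 and 22.2 FPKM in F/+ and at 43.8, 34.8 and 21.4 FPKM in F/F. Its groups overlapped, with a difference of 0.01 (SE 0.33, limma adjusted p = 0.999). Rspo3 was at 6.27, 8.57 and 5.36 FPKM in F/+ and at 13.4, 3.11 and 5.08 FPKM in F/F, so the F/F libraries held both the highest and the lowest value. Sema3c was at 6.75, 7.32 and 3.92 FPKM and at 8.92, 3.29 and 3.26 FPKM, again with the widest spread in F/F.

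Isl1 was low in every library, at 1.16, 0.96 and 0.81 FPKM in F/+ and at 1.81, 1.63 and 0.98 FPKM in F/F. The highest F/+ value lay above the lowest F/F value. Itm2a was at 58.9, 63.4 and 67.8 FPKM and at 77.6, 65.8 and 48.3 FPKM, and Clu at 64.8, 57.1 and 39.97 FPKM and at 77.9, 62.6 and 54.3 FPKM. For all 6 markers the limma adjusted p was 0.999 and the groups overlapped, beside 1 of 11491 genes called, Mir6236 (0.0087%). None of the markers had an unadjusted p under 0.05 either. The differences ranged from -0.27 for Sema3c to 0.31 for Isl1, and 3 of 6 were above 0. Over the 11 settings tried, the lowest adjusted p of any marker was 0.735, for Clu.

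Of the 25 genes named for their high ratio in outflow cells, 23 were measured in bulk and 0 were called by limma. An unadjusted p under 0.05 was reached by 4 of the 23 (Rgs5, Inha, Nrp2 and Phlda2), beside 502 of 11491 genes (4.37%). Inha was at 8.09, 9.42 and 5.34 FPKM in F/+ and at 16.7, 17.2 and 12.1 FPKM in F/F. The groups did not overlap, and the difference was 0.94 (SE 0.26, limma adjusted p = 0.999). In single cells Inha was at 46.5 and 55.1 CPM in outflow cells. Phlda2 was at 2.25, 2.09 and 1.18 FPKM in F/+ and at 5.27, 6.59 and 3.75 FPKM in F/F (limma adjusted p = 0.999), without overlap and in the opposite order to its outflow cells. Mybpc1 was at 1.24, 2.27 and 0.29 FPKM and at 1.77, 2.84 and 1.31 FPKM, with overlap.

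The genes named for their ratio between the single-cell libraries were not called in bulk either, 0 of 6 measured among the high and 0 of 8 among the low by limma. An unadjusted p under 0.05 was reached by 1 of the 6 and 2 of the 8, beside 4.37% of all genes. All 8 of the low genes measured had a bulk difference above 0, with a median of 0.25 against 0.01 over all genes, where their order between the single-cell libraries was the reverse. Ptn was at 131, 179 and 177 FPKM in F/+ and at 102, 96.7 and 77.4 FPKM in F/F. These groups did not overlap, and F/F was lower by 0.81 on the log2 scale (SE 0.18, limma adjusted p = 0.697), where F/F was the higher library in outflow cells. Nmt1 was at 59.7, 60.1 and 48.2 FPKM and at 54.0, 64.3 and 49.8 FPKM, with a difference of 0.00 (SE 0.17), and Dync1i2 at 54.7, 54.8 and 41.6 FPKM and at 48.3, 55.6 and 50.1 FPKM. Hk2 was at 20.1, 20.9 and 9.80 FPKM and at 23.1, 23.2 and 17.1 FPKM. None of these showed the order of the single-cell libraries beyond the spread of the bulk replicates. Hand2 was at 74.3 ± 14.3 FPKM in F/+ and 74.7 ± 5.03 FPKM in F/F (SD, n = 3 each).

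In bulk ventricles at E16.5 the rule's genes were lower than in whole hearts at E11.5. Bmp4 was at 5.18 ± 0.853 FPKM in F/+ and 5.33 ± 1.02 FPKM in F/F (SD, n = 3 each), and Isl1 was listed at 0 in 4 of 6 libraries. Rspo3 was at 1.45 ± 0.540 and 1.06 ± 0.271 FPKM and Sema3c at 1.04 ± 0.133 and 0.507 ± 0.142 FPKM (SD, n = 3 each). Itm2a was at 36.0 ± 5.32 and 36.0 ± 8.40 FPKM (SD, n = 3 each). Stage and tissue differ together in these values, and they were not tested.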

How the data were processed

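Single cells and whole hearts were measured as messenger RNA. The single-cell values are UMI counts, deposited by the authors as 1 table of genes by barcodes. Per the submitters' processing notes, Cell Ranger and mm10 were used for it, and CASAVA, TopHat2 2.0.11 and mm9 for the bulk table. Bulk values are FPKM as deposited by the authors, a unit inferred from the values because no header names it, so their depth is unknown. Bulk mRNA came from a stranded kit, per the labels' protocols; the annotation and counting are not given in the sources used here.

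The outflow cells, gene lists (24) and comparisons were chosen with earlier results of these data known. Within each library, UMIs of a class were added up and scaled to CPM. The 0 unmapped columns left nothing out. Symbols on several lines were summed (single cells) or merged when identical (bulk, 24525 lines to 24025 genes, 1 gene with a non-numeric cell dropped). Class ratios needed a mean over both classes of at least 20 CPM in each library, and library ratios at least 50 UMIs in each. Intervals are at 95%, exact given the summed UMIs for ratios and Clopper-Pearson for shares. Y-linked genes, Xist, haemoglobin and mitochondrial genes were left out of calls.

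Named were, by rule, the markers, the 25 highest and 15 lowest outflow ratios (by the less extreme library, with at least 50 UMIs in the higher class of each), the 10 highest and lowest F/F ratios, up to 6 genes of each list, and the 8 genes closest to the summed outflow genes. Bulk Inha and Phlda2, Myh11, Tbx1, Fgf8, Fgf10 and the negative correlates were singled out after their values were seen. Scrublet (scanpy 1.11.5) marked 9 and 3 barcodes, too few to be working. All barcodes were kept, and an alternative removed the highest scores (53 and 96, of which 3 and 11 outflow cells).

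For bulk, log2(FPKM + 1) was fitted over genes averaging 1 FPKM or more in limma 3.58.1 (R 4.3.3) with an intensity trend, with Benjamini-Hochberg adjustment and a threshold of 0.05. Both kinds of calculation were tested on simulated data. The labels do not say whether replicates are separate litters, so p-values measure the spread between these libraries.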

Additional observations from a re-analysis of the deposited data

How the results depend on the processing

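The share of outflow cells follows the threshold. At 2 UMIs it was 34.0% and 34.0% of cardiomyocytes (+/+ and F/F) and 7.8% and 9.3% of barcodes. At 5 UMIs it was 25.5% and 22.7% of cardiomyocytes and, in F/F, 6.2% of barcodes. At 6 UMIs, a setting chosen after seeing the data, it was 23.7% and 21.2% of cardiomyocytes and 5.5% and 5.8% of barcodes. Thinned to 5000 UMIs it was 22.1% and 21.0%, and 5.3% and 5.8%. In none of these did the library intervals separate.

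Counts past 1.5-fold depend on the floor. With the rule at 2 UMIs, 98 genes were lower in outflow than in chamber-type cells, in place of 180. A minimum of 40 CPM gave 209 higher and 104 lower in outflow cells, and one of 100 UMIs gave 9 higher and 49 lower in F/F. Minimums of 2 CPM and 5 UMIs gave 1048 and 515, and 649 and 715. Thinned to 5000 UMIs, 7 were higher and 43 lower between libraries. Of 811 single-gene values recomputed, 0 were counted as reversed and 151 moved beyond their counting interval. Sign changes of log2 ratios near 0 may fall outside this count.

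In bulk, limma called 1 gene higher in every setting. It called 1 gene lower, where the report has 0, in 3 settings. These were the replicate block, the covariate for Y-linked genes, and the fit without F/+ replicate 3, and leaving out each library gave 0 to 1 lower. The replicate numbers share only a number: same-numbered libraries correlated at -0.036, -0.017 and 0.082. The block called none of the markers. Depth leaves Tbx1, Fgf8 and Fgf10 without ratios, and the bulk depth is unknown.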
